A study of Mus musculus with 2 samples.

Results

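The nuclear genes of the mitochondrial respiratory chain were compared in the prefrontal cortex (PFC) of mice with and without chronic mild stress (CMS). The members were taken by their symbols, which begin with Nduf, Uqcr, Cox4, Cox5, Cox6, Cox7, Cox8 or Atp5, together with Sdha, Sdhb, Sdhc, Sdhd, Cyc1 and Cycs. Of 117 such symbols in the RefSeq gene table of the mouse, 98 were protein coding and 19 were pseudogenes. A probe was matched for 95 of the coding genes, and for Ndufb1, Ndufb4b and Ndufb4c none was matched. The array held 37069 gene names, of which 20658 were gene symbols. The others were bare identifiers of probes without a matched symbol, and such identifiers also count among all gene names below. The 95 members were 38 genes of complex I, 8 assembly factors of complex I that share its prefix, 4 of complex II, 9 of complex III, cytochrome c, 18 of complex IV and 17 of the ATP synthase.

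Both groups were adult male mice of the strain C57Bl/6 N sea. The control (C) group received ordinary care, and the CMS group lived in single cages and went through a schedule of unpredictable mild stressors for 4 weeks. One pool of total PFC RNA per group was labeled with Cy3 and hybridized to 1 one-color Agilent array. The design text gives 7 mice for each pool, and the methods of the study give another number. With 1 sample per group, the spread between mice is unknown and the pools are compared without a test. In RNA of bulk tissue, fewer cells of a type and less RNA per cell cannot be told apart.

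The respiratory chain passes electrons from NADH and succinate to oxygen. Complex I oxidizes NADH, complex II oxidizes succinate, complex III hands the electrons to cytochrome c, and complex IV reduces oxygen. Complexes I, III and IV pump protons across the inner membrane, and the ATP synthase uses the returning protons to make ATP. Neurons depend on this pathway for most of their ATP, and the genes of its subunits are split between the nucleus and the mitochondrial genome. Several subunits of complex IV exist as a widely used form and as a form that is mainly found in muscle, brown fat, lung or testis.

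Each array held 59305 spots of 55681 probes. Of the spots, 65.2% (C) and 65.9% (CMS) passed the scanner's limit for signal well above background, and no spot was saturated. Signals were scaled to a mean of 2500 on each array, and all levels below are on this scale, which allows a probe to be compared between arrays and not with another probe. Where 2 signals of a gene are given, the first is that of the C pool and the second that of the CMS pool. Log2 ratios are CMS over C. Over 27119 gene names with a ratio, the median log2 ratio was -0.031 and the interquartile range was 0.20. The pools differed in genes of other tissues. All 11 hepatocyte markers were higher in the CMS pool, 10 of them by more than 2-fold, and their signals summed to 8916 for C and 79653 for CMS. The 9 neuronal markers summed to 253642 and 249513, with log2 ratios between -0.18 and 0.20, so the markers that define the labeled tissue were present on both arrays. Of 6 oligodendrocyte markers, with a median log2 ratio of -0.15, 5 were lower, 3 of them beyond 2 SD between spots as defined below. Mbp was higher, with a log2 ratio of 0.11, and was also beyond this limit. Of all gene names, 8.92% passed it higher and 14.6% lower. Both erythroid markers with a ratio were higher, Hba-a1 (a globin) by 0.41 and Alas2 (an enzyme of heme synthesis) by 0.49 on the log2 scale. The part of these markers in the members' values was not tested.

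The size of the error on 1 array can be read from probes that were spotted several times. Across 342 such probes, the SD of log2 ratios between spots was 0.28 for signals under 64, 0.15 between 64 and 256, 0.083 between 256 and 1024, 0.059 between 1024 and 4096, 0.051 between 4096 and 16384, and 0.042 above 16384. This SD covers the error between spots only, and neither labeling nor mice. Respiratory chain probes were bright. Of the 94 members with a ratio, 60 lay above 16384, 18 between 4096 and 16384, 7 between 1024 and 4096, and 9 below. Members had a median signal of 25736 for C and 25323 for CMS. Cox8c was the member without a ratio, since its probe was not well above background on either array, at 4.52 and 4.59.

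Most respiratory chain genes differed little between the pools. The median log2 ratio of the 94 members was -0.0096, with an interquartile range of 0.077. The sign of this median depended on the scaling, since it was 0.011 when the arrays were scaled to their 75th percentile. Their signals summed to 2.99e+06 for C and 2.98e+06 for CMS, or 2.39% and 2.38% of all signal on the array. A log2 ratio between -0.1 and 0.1 was found for 76 of the 94 members, beside 13026 of the 27119 gene names. The genes that stood apart were Cox8b, Cox7b2 and Ndufab1, all of them with dim probes.

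By the study's threshold of 2-fold, 1 member was higher in the CMS pool (Cox8b) and 0 were lower, while 1.99% of all gene names were higher and 0.59% were lower. Past 1.2-fold, 2 members were higher (Cox8b and Ndufab1), beside 9.53% of all gene names, and 1 was lower (Cox7b2), beside 10%. Dim probes have the widest ratios, so the members were also set beside names of like brightness. Among the 9725 names with a signal of at least 1000, 1.42% were past 1.2-fold higher and 1.71% lower, and of the 85 members in this class 0 were higher and 0 lower. Among the 1678 names above 16384 the interquartile range was 0.097, and it was 0.053 for the 60 members in that class. In that class 55 of the 60 members and 1363 of the 1678 names had a log2 ratio within 0.1 of 0.

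**Figure D1:**
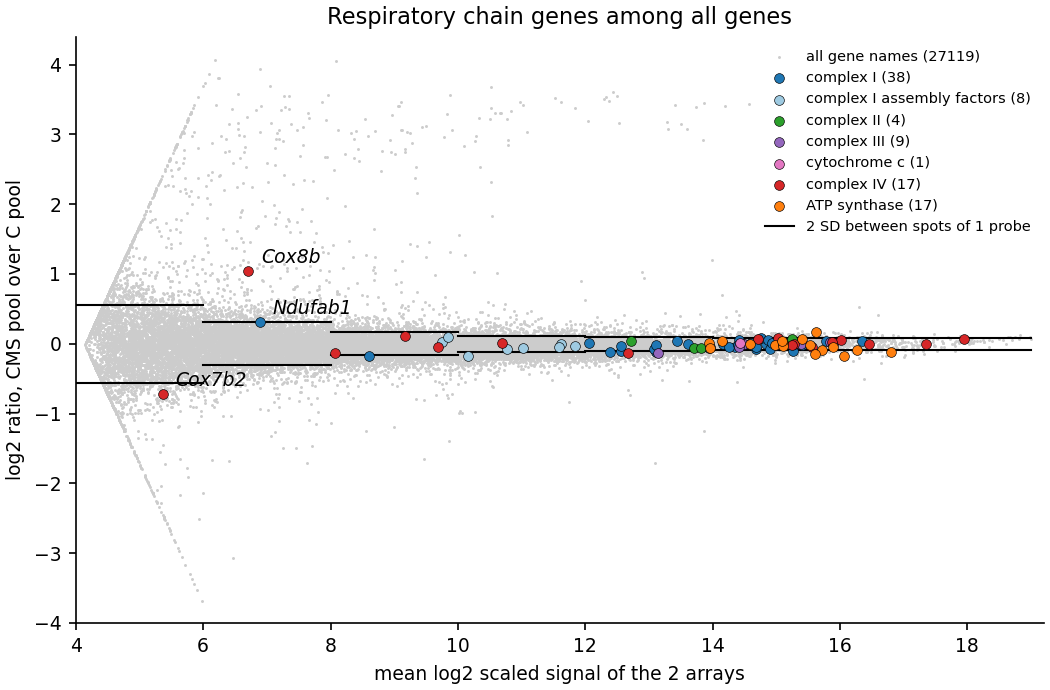
The log2 ratio of CMS over C is plotted against the mean log2 scaled signal of the 2 arrays for 27119 gene names (grey) and for the 94 respiratory chain members (colored by complex, with their number), and black lines mark 2 SD of the log2 ratios between spots of 1 probe in each signal class. Most members lie at the bright end and close to 0, and Cox8b, Cox7b2 and Ndufab1 lie at the dim end.

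**Figure D2:**
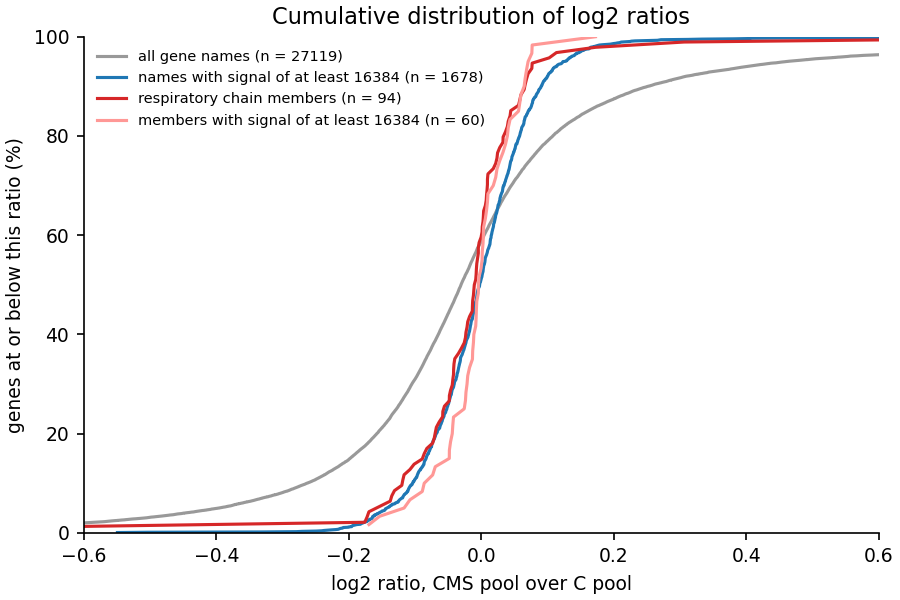
Cumulative share of genes (percent) against the log2 ratio of CMS over C for all gene names, for names with a signal of at least 16384, for the 94 members, and for the 60 members in that bright class. The members' curves are steeper than that of all names, with interquartile ranges of 0.077 for the 94 members, 0.053 for the 60 bright members, 0.097 for the bright names and 0.20 for all names.

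Another limit was the spread between spots itself. Beyond 2 SD at like signal, 2 members were higher (Cox8b and Atp5j2), beside 8.92% of all names, and 13 were lower, beside 14.6%. The share of members that were lower, 13 of 94, was near that of all names, and the share that were higher, 2.13%, was smaller. Among names with a signal of at least 1000, 768 of 9725 were higher and 1991 lower beyond this limit. Of the 85 members in this class, 1 was higher and 11 were lower. The 13 lower members included Ndufv1, Ndufa8 and Ndufa4l2 of complex I, its assembly factor Ndufaf6 and Uqcrc1 of complex III. Cox6b1 and Cox7b2 of complex IV, and Atp5b, Atp5g1, Atp5g3, Atp5h and Atp5l of the ATP synthase were also among them. Apart from Cox7b2, all of them had log2 ratios between -0.18 and -0.086. The counts over all 94 members moved with the scaling. When the arrays were scaled to their 75th percentile, 9 were higher and 8 lower. When they were scaled to their median, 2 were higher and 18 lower, and without scaling 1 was higher and 88 lower. With the mean over all probes of a gene, 4 were higher and 11 lower. The shares of all names beyond this limit are not given for these settings, so these counts are not read as particular to the members. The median log2 ratio of all names moved too, to -0.011 with the 75th percentile, -0.062 with the median and -0.20 without scaling. The error that the scanner software gives for a log2 ratio was wider. It was 0.20 for every member with a signal of at least 1000, so for them it acted as a fixed cut and not as an error measured on their spots. Only 3 members lay beyond the scanner error given for their probe, namely the dim Cox8b, Cox7b2 and Ndufab1. The other members beyond 2 SD between spots lay within theirs.

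Complex I takes in electrons through a peripheral arm whose core subunits carry a flavin and iron-sulfur clusters. The 38 genes of complex I had a median log2 ratio of -0.011, between -0.18 (Ndufa4l2) and 0.31 (Ndufab1), and 15 were above 0 and 23 below. Ndufv1, which binds NADH and the flavin, had a signal of 40904 for C and 37960 for CMS (log2 ratio -0.11). Ndufv2, its partner with an iron-sulfur cluster, was at 21726 and 21418 (log2 ratio -0.021). Of the other core subunits in this arm, Ndufs1 was at 12619 and 12569 (log2 ratio -0.0058). Ndufs7, which carries the last iron-sulfur cluster before ubiquinone, was at 31093 and 31307 (log2 ratio 0.0099), within 2 SD between spots. Ndufs3 was at 31400 and 29840 (log2 ratio -0.073), and Ndufs8, which carries iron-sulfur clusters, was at 4231 and 4258 (log2 ratio 0.0092).

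The 31 other genes named for complex I had a median log2 ratio of -0.0079. Apart from Ndufa4 and Ndufa4l2, described below, they encode subunits that surround the core. Ndufa2 was at 26978 and 28440 (log2 ratio 0.076), the highest after Ndufab1, and Ndufa8 was at 9224 and 8496 (log2 ratio -0.12). Ndufab1 is the mitochondrial acyl carrier protein, which also serves fatty acid synthesis. It was read by 1 dim probe with 1 spot, at 107 for C and 133 for CMS, a ratio of 1.24 and a log2 ratio of 0.31. This was just within 2 SD between spots at that signal (1 SD was 0.15). The 8 assembly factors, which build complex I and are not part of it, had a median of -0.036. Ndufaf8 was at 892 and 957 (log2 ratio 0.10). Ndufaf6 was at 1209 and 1073 (log2 ratio -0.17) and was the only one of the 8 beyond 2 SD by the probes used. The probe used for Ndufaf4 had a log2 ratio of -0.071. Its other probe, of like brightness, was at 1801 and 1631 (log2 ratio -0.14) and was beyond 2 SD in the lower direction.

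Complex II is succinate dehydrogenase, the enzyme that the chain shares with the tricarboxylic acid cycle. Its 4 subunits lay on both sides of 0, with a median log2 ratio of -0.0057. Sdha, the flavoprotein, was at 13695 for C and 13176 for CMS (log2 ratio -0.056). The iron-sulfur subunit Sdhb was at 37880 and 39713 (log2 ratio 0.068). Of the membrane anchors, Sdhc was at 6632 and 6839 (log2 ratio 0.044), and Sdhd was at 14783 and 14103 (log2 ratio -0.068). None of the 4 subunits passed 2 SD between spots. The sign of Sdhb and of Sdhc depended on the probe, since their other probes had log2 ratios of -0.028 and -0.048.

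In complex III the 9 genes had a median log2 ratio of -0.0085, from -0.14 to 0.024. The catalytic nuclear subunits are Cyc1, the cytochrome c1, and Uqcrfs1, the Rieske iron-sulfur protein. Cyc1 was at 22849 for C and 22740 for CMS (log2 ratio -0.0069), and Uqcrfs1 was at 16085 and 15644 (log2 ratio -0.040). Both core proteins, which face the matrix, were lower in the CMS pool. Uqcrc1 was at 9469 and 8622 (log2 ratio -0.14), the only gene of complex III beyond 2 SD between spots. Cycs, the soluble cytochrome c that carries electrons from complex III to complex IV, was at 21941 and 22033 (log2 ratio 0.0060).

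Uqcrc2, the other core protein, gave the best view of the measurement error among the members, because its probe was spotted 10 times on each array. For C, the 10 spots had a median of 22093, a lowest value of 21062, a highest of 22897 and a coefficient of variation of 2.67%. For CMS, the 9 spots that were used had a median of 21489, a lowest value of 20618, a highest of 22218 and a coefficient of variation of 2.33%. The ranges of both arrays overlapped for most of their length. Spot by spot, the log2 ratio was -0.044 ± 0.042 (SD, 9 spots) and was below 0 in 8 of the 9. The mean difference was thus about as large as the SD of the ratio of a single spot. A mean over 9 spots has a smaller spot error than this SD, and the limit of 2 SD used here is one for single spots. These spots are no replicates of mice.

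**Figure D3:**
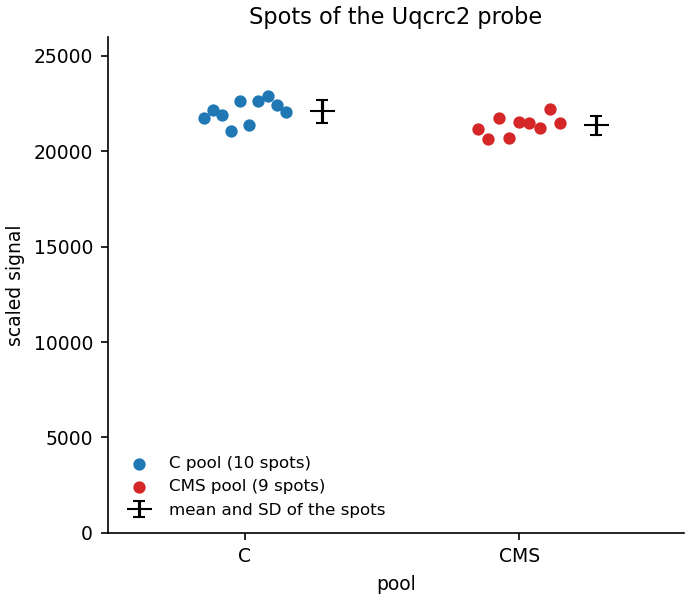
Scaled signal of each spot of the Uqcrc2 probe for the C pool (10 spots) and the CMS pool (9 spots, 1 outlier spot left out), with the mean and SD of the spots at the right of each group. The spots run from 21062 to 22897 in the C pool and from 20618 to 22218 in the CMS pool, so that the groups overlap.

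Complex IV, cytochrome c oxidase, held Cox8b and Cox7b2, the members with the highest and the lowest log2 ratio. The 17 genes with a ratio had a median log2 ratio of 0.0025. Cox4i1, the widely used form of the subunit that regulates the enzyme by ATP, was at 89899 for C and 89433 for CMS (log2 ratio -0.0075). The signals of Cox5a and Cox5b, which sit beside it at the matrix side, were 65253 and 67928 (log2 ratio 0.058) and 49208 and 47794 (log2 ratio -0.042) respectively. For Cox6c, a small membrane subunit, they were 59790 and 60949 (log2 ratio 0.028). All of these were within 2 SD between spots.

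Several subunits of complex IV are encoded by a widely expressed gene and by a relative that is expressed in few tissues. The widely expressed forms were bright and stayed close to 0. Cox6a1 was at 246143 and 258474 (log2 ratio 0.071), Cox7a2 at 32352 and 34118 (log2 ratio 0.077), and Cox7b at 38982 and 38660 (log2 ratio -0.012). Cox7a2l, a relative of Cox7a2, was at 39843 and 39913 (log2 ratio 0.0025). Cox6b1, which links the monomers of the enzyme, was the exception with 6832 and 6238 (log2 ratio -0.13). Among the tissue-restricted forms, the muscle forms Cox6a2 and Cox7a1 also hardly differed. Cox6a2 was at 1647 and 1657 (log2 ratio 0.0086) and Cox7a1 was at 835 and 811 (log2 ratio -0.041). Cox4i2, a form known from lung and induced by low oxygen, was at 552 and 597 (log2 ratio 0.11), and the testis form Cox6b2 was at 281 and 255 (log2 ratio -0.14). Neither of these passed 2 SD between spots.

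The Cox8 family showed the one difference beyond 2-fold. Cox8a, the form used in most tissues, was at 166602 for C and 166076 for CMS (log2 ratio -0.0046). Cox8b (NM_007751), the form of heart, skeletal muscle and brown fat, was at 73.0 for C and 150.5 for CMS, a ratio of 2.06 and a log2 ratio of 1.04, at which 1 SD between spots was 0.15. It was well above background on both arrays, and was read by 1 probe with 1 spot. Cox7b2 (NM_030052), a testis form of Cox7b, was the lowest of the members, at 52.9 for C and 32.1 for CMS (log2 ratio -0.72). At that signal 1 SD between spots was 0.28, and again 1 spot was read. With normexp background correction and quantile normalization, the log2 ratio of Cox8b was 0.69 and no member passed 2-fold, and that of Cox7b2 was -0.33. Without scaling no member passed 2-fold either.

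**Figure D4:**
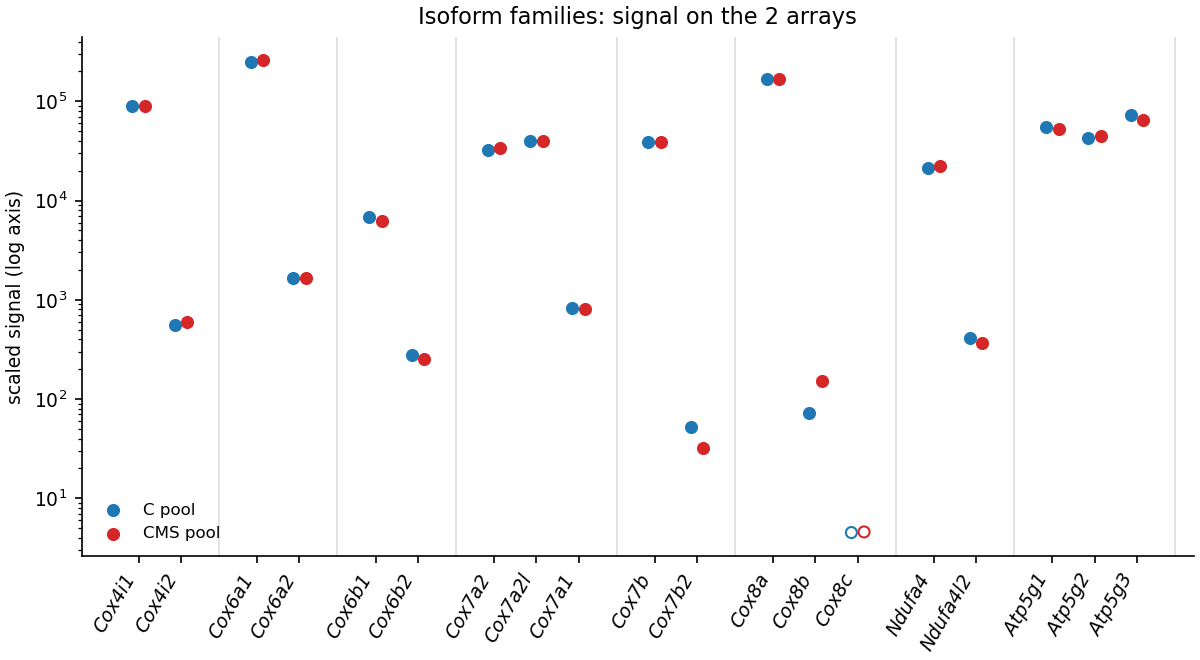
Scaled signal (log axis) on the C array (blue) and the CMS array (red) for families of respiratory chain genes with several isoforms, where open circles are signals not well above background. Heights of different genes come from different probes and are not comparable, and within genes the points lie apart for Cox8b (73.0 and 150.5) and Cox7b2 (52.9 and 32.1).

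Markers of tissues that use Cox8b were read beside it. Of 3 brown fat markers, Ucp1, the uncoupling protein that makes heat, was at 27.0 and 92.6 (log2 ratio 1.78), and Cidea, a lipid droplet protein, was at 810.4 and 787 (log2 ratio -0.043). Elovl3, a fatty acid elongase, was not well above background for C and reached 110.5 for CMS, at least 6.21-fold higher against the lowest signal that counted as above background or its own signal, whichever was higher. Together the 3 summed to 855 for C and 989.7 for CMS, of which Cidea made up most. Of 7 general fat markers, a list added after values had been seen, Fabp4 was at 26.6 and 138 and Cfd at 20.0 and 96.3, with log2 ratios of 2.37 and 2.27. Retn had a log2 ratio of -0.14. Plin1 passed the background limit only for CMS and had a log2 ratio of at least 0.18. Adipoq (7.30 and 14.2), Lep (6.48 and 5.93) and Cidec (4.72 and 15.6) did not pass this limit in either pool. The 7 summed to 311 and 503.

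The muscle markers did not move in 1 direction. Of 8, the 6 with a ratio had log2 ratios from -0.91 (Myh6, a heart myosin) to 0.32 (Myh1, a myosin of fast muscle). Ckm and Mb did not pass the background limit in either pool. The sum of the 8 was 961 for C and 978 for CMS. The hepatocyte markers given above and Ucp1, Elovl3, Fabp4 and Cfd were higher in the same pool as Cox8b, and their part in its difference was not tested. For the testis form Cox7b2, 4 testis markers were read. Tnp1 had a log2 ratio of -0.65, Prm2 of 0.0048 and Ldhc of at least 0.33 below 0, Prm1 was not well above background, and their sum was 197 for C and 175 for CMS. Their part in the difference of Cox7b2 was not tested.

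Ndufa4, named for complex I and now placed with complex IV, was at 21336 and 22182 (log2 ratio 0.056). Its relative Ndufa4l2, which is induced by low oxygen, was at 415 and 368 (log2 ratio -0.18), and thus lay just beyond 2 SD between spots in the lower direction. Cox4i2, the other form that is induced by low oxygen, lay on the opposite side of 0.

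The ATP synthase joins a catalytic head in the matrix to a rotor in the membrane. Its 17 genes had a median log2 ratio of -0.023, with 7 above 0 and 10 below. Atp5b, the catalytic beta subunit, was at 119148 for C and 109895 for CMS (log2 ratio -0.12). Atp5a1, the alpha subunit, was at 62036 and 60067 (log2 ratio -0.047), and Atp5c1, the gamma subunit that turns in the head, was at 32381 and 32127 (log2 ratio -0.011). The c ring of the rotor is made of 1 mature protein that is encoded by 3 genes. Atp5g1 was at 55724 and 52490 (log2 ratio -0.086), Atp5g2 at 42495 and 44490 (log2 ratio 0.066) and Atp5g3 at 72948 and 64855 (log2 ratio -0.17). Atp5g1 and Atp5g3 were thus lower in the CMS pool by more than 2 SD between spots, and Atp5g2 was within this limit. The other probe of Atp5g2, also bright, had a log2 ratio of 0.13 and was beyond 2 SD in the higher direction. Atp5h, the d subunit of the stalk, was at 81632 and 76739 (log2 ratio -0.089), while its other probe was at 52397 and 53593 (log2 ratio 0.033). Of the small membrane subunits, Atp5j2 (subunit f) was at 47631 and 53669 (log2 ratio 0.17), the highest ratio among bright members, with 0.11 for its other probe, and Atp5l (subunit g) was at 52780 and 47450 (log2 ratio -0.15).

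The value of Atp5l rested on its brightest probe. Of its 5 probes, the other 4 had log2 ratios of -0.013, -0.0051, 0.036 and 0.12, and the mean over all 5 was -0.0029. Across the 25 members with several probes, the range of log2 ratios between probes was 0.064 in the median, and in 13 of the 25 the probes lay on both sides of 0. For 4 members the probes differed by more than 0.13, namely Atp5l (0.28), Ndufaf5 (0.25), Ndufb11 (0.23) and Cox7c (0.18). In the last 3 another probe was dim, with signals between 63.0 and 161. Whether transcripts of the pseudogenes or of near-identical copies add to a probe's signal was not tested.

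**Figure D5:**
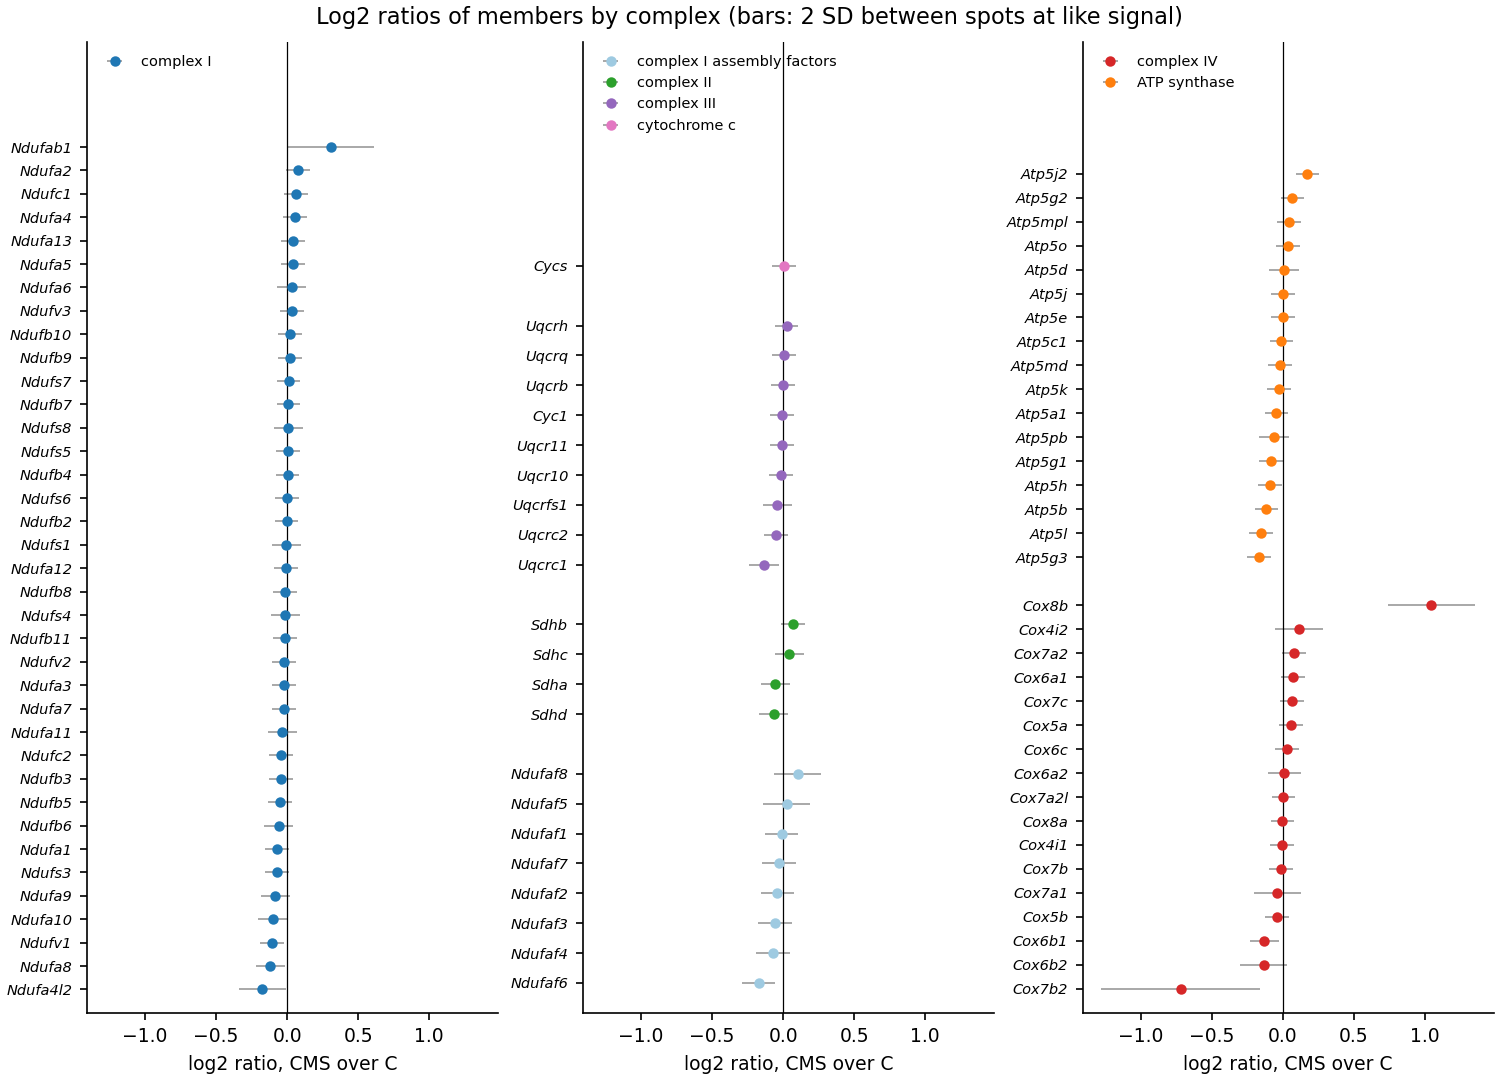
Log2 ratio of CMS over C for the members with a ratio (1 of them is not shown), sorted within their complex, with bars of 2 SD of the log2 ratios between spots of 1 probe at like signal. The points lie close to 0 in all complexes, with 91 of the 94 within 0.2 of 0 and Cox8b (1.04), Cox7b2 (-0.72) and Ndufab1 (0.31) outside.

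Promoters were read because the nuclear genes of the chain are known targets of NRF1, of GABPA (an ETS factor also called NRF2) and of YY1. The RefSeq table for GRCm38.p6 held 82 promoters of 77 members, each with 250 bases before and 50 after the start, and 18 members had no entry. The NRF1 motif GCGCNTGCG, searched on both strands, was found in 34.1% of the member promoters, beside 6.31% of all 32851 promoters and 8.61% of those of protein-coding genes. The ETS motif CCGGAAG was found in 23.2% of the member promoters, in 8.86% of all and in 11.6% of those of protein-coding genes. The YY1 motif AAGATGGCG was found in 9.76% of the member promoters, in 1.40% of all and in 1.83% of those of protein-coding genes. In members, 7 of the 8 matches lay after the start. None of the 3 motifs contains another. Member promoters were also richer in G and C, with a median of 58.5% beside 52.7% for all promoters and 56.3% for those of protein-coding genes. At least 1 of the motifs was present in 44 of the 77 genes.

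Promoters are shown for members that stayed level or stood apart, from 150 bases before to 30 after the start, in lower case with matches to the motifs in capitals and with coordinates of GRCm38.p6. In this window Cycs has 1 NRF1 match, Sdha has 3 and Uqcrc1 has 1, and Cox8a has 1 ETS match. For Cox8b and Cox7b2, the genes with the widest ratios, none of the 3 motifs was matched.
Cycs, chr6:50566540-50566719, minus strand: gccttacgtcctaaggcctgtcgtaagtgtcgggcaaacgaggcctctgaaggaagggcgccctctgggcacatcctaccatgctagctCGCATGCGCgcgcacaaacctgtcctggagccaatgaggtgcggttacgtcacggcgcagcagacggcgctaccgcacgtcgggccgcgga
Sdha, chr13:74350211-74350390, minus strand: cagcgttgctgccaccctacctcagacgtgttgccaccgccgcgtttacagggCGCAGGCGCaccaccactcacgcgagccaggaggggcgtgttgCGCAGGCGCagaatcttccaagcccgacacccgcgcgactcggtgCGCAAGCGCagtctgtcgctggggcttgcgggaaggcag
Uqcrc1, chr9:108936498-108936677, plus strand: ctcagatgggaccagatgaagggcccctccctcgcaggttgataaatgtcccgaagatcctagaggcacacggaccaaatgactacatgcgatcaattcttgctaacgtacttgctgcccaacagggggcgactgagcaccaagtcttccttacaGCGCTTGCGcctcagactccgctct
Cox8a, chr19:7217587-7217766, minus strand: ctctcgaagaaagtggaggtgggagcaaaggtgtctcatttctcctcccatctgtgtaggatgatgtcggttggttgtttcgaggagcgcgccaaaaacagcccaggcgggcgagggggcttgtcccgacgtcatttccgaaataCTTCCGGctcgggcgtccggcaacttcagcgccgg
Cox8b, chr7:140900417-140900596, minus strand: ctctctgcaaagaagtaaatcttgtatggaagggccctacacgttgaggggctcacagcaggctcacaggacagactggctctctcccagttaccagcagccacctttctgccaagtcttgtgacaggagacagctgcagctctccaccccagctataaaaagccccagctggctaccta
Cox7b2, chr5:71548176-71548355, minus strand: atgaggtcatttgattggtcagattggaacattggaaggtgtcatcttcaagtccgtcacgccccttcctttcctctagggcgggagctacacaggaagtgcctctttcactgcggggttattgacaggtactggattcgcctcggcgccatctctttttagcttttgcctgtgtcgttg

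The log2 ratios of genes with and without a motif were set side by side, with no test. The median was -0.0085 for the 27 genes with an NRF1 match and -0.016 for those without. It was -0.0085 with and -0.014 without an ETS match (19 genes with), and 0.0056 with and -0.018 without a YY1 match (8 genes with). The factors themselves were measured too. Nrf1 was at 664 and 649 (log2 ratio -0.033), Gabpa at 349 and 406 (log2 ratio 0.22), and Yy1 at 861 and 869 (log2 ratio 0.013). Gabpa was the one of the 3 beyond 2 SD between spots, with a higher signal in the CMS pool.

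The regulators that act with them lay slightly below 0. Ppargc1a, the coactivator that drives the making of mitochondria, was at 2455 and 2284 (log2 ratio -0.10). Tfam, which packs and transcribes mitochondrial DNA, was at 1660 and 1532 (log2 ratio -0.12). Ppargc1a and Tfam were within 2 SD between spots. Over the list of 14 regulators, 0 passed 1.2-fold in either direction, and the median log2 ratio was -0.069. Beyond 2 SD between spots, 1 was higher (Gabpa) and 2 were lower (Esrra, -0.18, and Polg, -0.24). Of all names, 8.92% were higher and 14.6% lower by this limit.

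Lists of other genes of mitochondria and energy metabolism were read in the same way. Past 1.2-fold, 0 genes in either direction were found among 37 assembly factors of the chain that the rule does not take (median log2 ratio -0.045), 17 genes of the tricarboxylic acid cycle (-0.055), 21 carriers, import and membrane proteins (-0.030), 77 genes of the mitochondrial ribosome (-0.016) and 16 genes of glycolysis (-0.080). The 84 genes of the cytosolic ribosome also had 0 past 1.2-fold and a median of 0.025. By the limit of 2 SD between spots, which 8.92% of all names passed higher and 14.6% lower, 7 of 16 genes of glycolysis, 5 of 17 of the tricarboxylic acid cycle, 5 of the 37 assembly factors, 2 of the 21 carriers and 10 of 77 of the mitochondrial ribosome were lower, and 3 of the last were higher. Of the 84 genes of the cytosolic ribosome, 18 were higher and 3 lower. These counts, like those of the members, move with the scaling. When the arrays were scaled to their 75th percentile, the median log2 ratio was -0.060 for glycolysis and -0.035 for the tricarboxylic acid cycle. It was 0.045 for the cytosolic ribosome. In the list of 10 mitochondrial antioxidants and uncoupling proteins (median -0.0066), Ucp1 was past 1.2-fold and past 2-fold. Ucp2 and Ucp3, its relatives in other tissues, had log2 ratios of -0.16 and -0.25. The 13 subunits encoded in mitochondrial DNA had no matched probe and were not analysed here.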

How the data were processed

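Pooled PFC RNA of each group was hybridized to 1 array. The authors deposited scanner intensities made with Agilent Feature Extraction 10.10.1.1, which were background-subtracted and spatially detrended and not scaled between arrays, and a table of intensities scaled to an average of 2500. The array header names another genome build than the gene table, so no gene coordinates are given apart from those of promoters, which the promoter table gives in its own build.

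Control spots and 130 (C) or 133 (CMS) outlier spots were removed from the deposited intensities, probes were averaged over their spots, and each array was brought to a mean of 2500. The scanner's flag for signal well above background had to hold for a share of 0.5 of a probe's spots. Where it failed on 1 array, the value there was raised, if lower, to the array's lowest flagged signal (17.8 for C, 17.6 for CMS), and where it failed on both, no ratio was taken. Unversioned accessions were given symbols from RefSeq's table for GRCm38.p6 (30740 of 59305 spots), and a gene was read from its brightest probe by mean log2 signal.

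With 1 array per group, the number of arrays limits the precision, and the groups were compared without a test. Members, gene lists and rules were chosen with earlier results of these data known. Genes named are the 10 highest and 10 lowest members, core subunits, tissue-restricted isoforms, members below background, members past 2-fold, and genes of the pathway lists past 1.2-fold. The classes by signal, the limit of 2 SD between spots, the fat list and the NRF1 and YY1 motifs without their last letter were added after values had been seen, and other members were named for the limit of 2 SD or for probes that differed. Alternatives were scaling to the 75th percentile, the median or the mean trimmed by 2% at each end, no scaling, quantile normalization, loess, normexp (offset 50) with quantile normalization, the deposited table, other handling of dim, outlier or several probes, and mRNA accessions only. The values of 1 member are not reported here. Calling was tested on simulated arrays, in which the changed genes were brighter than Cox8b, Cox7b2 and Ndufab1. That simulation says nothing about calls from probes as dim as theirs. Python 3.11.15, numpy 2.4.6, pandas 2.3.3, statsmodels 0.14.6, matplotlib 3.10.9, and R 4.3.3 with limma 3.58.1 were used.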

Additional observations from a re-analysis of the deposited data

How the results depend on the processing

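Under 14 alternatives, none of the members past 1.2-fold changed direction. Atp5j2, which passed the limit of 2 SD between spots, was at -0.0013 without scaling. Of 1316 recomputed log2 ratios, 1218 stayed within 0.13 of the reported one, the SD between spots over all repeated probes, and 1196 within 1 SD at the member's own signal. Of the 98 that moved by the wider limit, 94 did so without scaling, 3 with normexp and quantile normalization, and 1 with the mean of all probes (Atp5l, -0.0029). Of the 120 beyond 1 SD at like signal, these settings held 93, 19 and 7. Without scaling, the median of all genes shifted to -0.20, and the values follow this shift. The members' median was then -0.18, with 0 members past 2-fold, 1 past 1.2-fold higher and 13 lower. The medians were -0.18 for complex I, -0.21 for its assembly factors, -0.18 for complexes II and III, -0.17 for cytochrome c and complex IV, -0.20 for the ATP synthase, -0.22 for the other assembly factors, -0.23 for the tricarboxylic acid cycle, -0.24 for the regulators, -0.20 for carriers, -0.18 for antioxidants and uncoupling proteins, -0.25 for glycolysis, -0.19 for the mitochondrial ribosome and -0.15 for the cytosolic ribosome. Relative to all genes, the members' median ran from -1.8e-05 to 0.030 over all settings.

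With normexp and quantile normalization, 0 members passed 2-fold and 1 was past 1.2-fold higher. The cause was not tested. Under the other 12 alternatives Cox8b, Ndufab1 and Cox7b2 remained the members past 1.2-fold. Over all settings the log2 ratio ran from 0.69 to 1.06 for Cox8b, from -0.89 to -0.33 for Cox7b2 and from 0.13 to 0.33 for Ndufab1.

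The counts beside the members depended more on the setting. Past 2-fold, 539 names were higher and 160 lower as reported. These became 434 and 256 without scaling (62.9% higher in place of 77.1%), 265 and 38 with normexp, 775 and 315 without bounds, 294 and 44 with probes above background on both arrays, 1493 and 1069 without a filter, and 365 and 66 with mRNA accessions only. Past 1.2-fold, 2585 were higher and 2714 lower as reported, 1448 and 9094 without scaling, 1297 and 1123 with normexp, 4708 and 4911 without a filter, and 1244 and 1274 with mRNA accessions only.

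No paired analysis was possible because each group had 1 array. Leaving out an array was not possible either. Ratios of the 9 members with signals under 1000 are the least certain.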
